A study of Mus musculus with 4 samples.

Results

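Grem1, Chrd and Fst, which encode secreted antagonists of bone morphogenetic proteins (BMPs) and activins, and Inhbb, which encodes a subunit of the activin and inhibin ligands, were followed through the fibroblast-like cells of the mouse small intestine. They were taken by name and are 4 of the 3891 genes of the table used here. The cells came from the small intestine of untreated wild-type C57Bl/6 male mice, 8 weeks old by the labels, and were sorted as CD45neg EpCAMneg CD31neg gp38+ cells, that is without leukocytes, epithelium and endothelium and with podoplanin. No transgene or Cre was used. How many mice went into a library is not given in the sources used here. Every value below comes from 2 10X Genomics libraries, 10X 1 with 2547 cells (median 8757 UMIs per cell) and 10X 2 with 14344 cells (median 6874 UMIs). A UMI is a molecular tag that counts 1 captured RNA molecule. The library is the replicate, so p-values measure the spread between these 2 libraries, which may be technical.

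BMPs are secreted signals that in the intestine act most strongly along the villus, where they favour differentiation, whereas antagonists made around the crypt base protect stem cells from them. Gremlin 1 and chordin bind BMPs outside the cell and keep them from their receptors. Follistatin does so mainly for activins, and activin B is a dimer of the Inhbb product. Fibroblasts below the epithelium that carry high PDGFRA are known as a source of BMP ligands, and fibroblasts near the crypt base as a source of Gremlin 1.

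Cells were placed in groups by whether marker genes had a UMI. Cells with Sox6 formed the subepithelial group (285 cells in 10X 1 and 2699 in 10X 2). They were split into cells with Wif1 (114 and 817), with Adamts18 (18 and 174) and with neither (153 and 1704), and the 4 cells with both were set aside. The rest were placed, in this order, in the mesothelial-like group (at least 3 of Inmt, Penk, Vit and Scara5, 331 and 1107 cells), the Fibin type (at least 3 of Chodl, Dner, Thbs2 and Ptn, 100 and 697 cells), the crypt group (at least 2 of Prss23, Col8a1, Stc2 and Cilp, 1304 and 5940 cells) and the villus group (Lpl, 406 and 2907 cells), and 1115 cells met no rule. The groups are defined by detection and overlap in part: Lpl was also found in 57.3% of the crypt group and 82.4% of the subepithelial group, and 80.1% of the mesothelial-like and 34.2% of the subepithelial cells also met the crypt rule. Median totals per cell ran from 7009.5 UMIs (villus) to 11976 (Wif1 subepithelial) in 10X 1 and from 5434 to 9682, in the same groups, in 10X 2, so the main shares of cells with a UMI are also given thinned, that is after 2000 UMIs had been drawn from each cell. Cells with fewer were left out of these, so 2485 cells of 10X 1 and 14033 of 10X 2 remained.

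Genes that did not define the groups were used to check the names. Pdgfra, the receptor that marks these fibroblasts, was found in 83.1% to 100% of the cells of each group of 10X 2. Foxl1, a transcription factor of subepithelial cells, was found in 65.5% of the Adamts18 cells, 22.4% of the Wif1 cells and 1.16% of the crypt group of 10X 2. Fibin was found in 87.4% of the Fibin type of that library and 11.6% of the crypt group. It was also found in 42.1% of the subepithelial group and 58.0% of the Adamts18 cells, so it is not particular to the Fibin type. Wt1, a transcription factor of mesothelium, was found in 17.6% of the mesothelial-like group of 10X 2, against 0.673% of the crypt group. In contrast, the mesothelial genes Msln and Lrrn4 had a UMI in 0 of the 1107 mesothelial-like cells, where the floor of 3 counts is 0.271%. The name is therefore kept as that of the rule and not as that of mesothelium. In 10X 2, F3 was found in 54.4% of the subepithelial, 39.1% of the mesothelial-like and 21.2% of the crypt group. Ackr4 was there in 47.5% of the crypt, 5.50% of the villus and 63.1% of the mesothelial-like group and 59.0% of the Fibin type. Postn was in 60.0% of the crypt, 26.8% of the villus and 69.1% of the mesothelial-like group and 75.9% of the Adamts18 cells. The crypt and villus names are therefore also those of the rule. The 10X libraries shared 7 cell barcodes.

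Chrd and Inhbb were both highest in the Wif1 cells, and the 250 bases before their transcription starts, with those of Grem1, which was highest elsewhere, are shown so that members that moved together and apart can be compared. They are RefSeq sequences of GRCm38.p6, read 5′ to 3′ on the strand of the gene, and capitals mark the palindrome GGCGCC, a GC-rich element that SMAD proteins can bind. Inhbb (chr1:119415465-119422248, minus strand) is preceded by chr1:119422249-119422498, Chrd (chr16:20733127-20742384, plus strand) by chr16:20732877-20733126, and Grem1 (chr2:113746164-113758646, minus strand) by chr2:113758649-113758898. Fst lies at chr13:114452290-114458951 on the minus strand. Gene positions are those of GENCODE M21 on GRCm38.
Inhbb: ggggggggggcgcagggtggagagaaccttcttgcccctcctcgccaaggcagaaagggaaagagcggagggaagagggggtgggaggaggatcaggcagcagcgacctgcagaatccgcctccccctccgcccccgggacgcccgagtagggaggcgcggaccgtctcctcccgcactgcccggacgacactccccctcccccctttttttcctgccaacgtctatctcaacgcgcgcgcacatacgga
Chrd: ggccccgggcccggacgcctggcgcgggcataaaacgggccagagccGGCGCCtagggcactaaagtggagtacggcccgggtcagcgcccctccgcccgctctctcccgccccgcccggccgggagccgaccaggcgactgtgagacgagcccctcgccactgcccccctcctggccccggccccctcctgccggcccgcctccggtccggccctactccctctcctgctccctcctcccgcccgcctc
Grem1: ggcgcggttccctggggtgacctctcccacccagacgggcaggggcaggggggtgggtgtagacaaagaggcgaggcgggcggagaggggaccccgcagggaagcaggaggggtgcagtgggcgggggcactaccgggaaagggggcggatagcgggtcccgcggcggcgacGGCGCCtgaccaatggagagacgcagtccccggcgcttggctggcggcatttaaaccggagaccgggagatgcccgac
GGCGCC was found 1 time each before Chrd and Grem1, starting at -203 and -78 from the start, and not before Inhbb. Of all 32851 such windows 9.59% held it. TATAAA (12.4% of the windows) and AACAAT, a core that SOX proteins can bind (9.42%), were searched on both strands and were in none of the 3 windows. The windows held 68% (Inhbb), 72% (Grem1) and 78% (Chrd) G and C, against a median of 52.4%. A match or its lack describes letters in these windows and was not tested against expression.

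Grem1 was highest in the crypt and mesothelial-like groups. Of each 10,000 UMIs of the crypt group, 10.6 in 10X 1 and 8.24 in 10X 2 were Grem1, against 1.03 and 1.16 in the villus group. The mesothelial-like group had 13.4 and 6.83 and the Fibin type 4.78 and 3.92. The subepithelial group stood lowest of the 5 groups with 0.217 and 0.946. No crypt value overlapped a villus, Fibin type or subepithelial value, whereas the 2 mesothelial-like values enclosed both crypt values. The crypt group held 69.9% and 73.3% of all Grem1 UMIs of its library.

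The mesothelial-like level of Grem1 lay in the cells that also met the crypt rule. These, 275 of 331 and 877 of 1107 cells, had 15.3 and 8.01 Grem1 UMIs per 10,000 and a UMI in 85.5% and 70.7% of cells. The other 56 and 230 cells had 0.163 and 1.30 per 10,000 and a UMI in 8.93% and 23.0%, at a lower median depth (7873.5 and 6926 UMIs, against 10545 and 8328). Fst ran the other way, with 0.428 and 0.366 per 10,000 in the cells that met the crypt rule and 1.35 and 1.63 in those that did not. This split was made after the values were seen and was not tested.

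On the natural log scale of the table, the mean over the cells of a group was tested with limma over both libraries. Grem1 was 1.2 ± 0.13 (SD, n = 2 libraries) higher in the crypt than in the villus group (adjusted p = 0.0016), a 10.3-fold and 7.09-fold difference in UMIs per 10,000 in 10X 1 and 10X 2. In this comparison 26.2% of 1890 tested genes passed. Grem1 was 1.4 ± 0.25 lower in the subepithelial than in the crypt group (adjusted p = 0.000116), where 61.6% of the genes passed, and by UMIs the crypt level was 49.1 and 8.71 times the subepithelial level. The Fibin type lay between: it was 0.74 below the crypt group (adjusted p = 0.00343, 61.2% of genes passed) and 0.45 above the villus group (adjusted p = 0.0355, 53.7%). Of the Fibin type cells 44.4% also met the crypt rule, and the part of these cells in its level was not tested.

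The neighbours at both ends of the order were not told apart. The crypt minus mesothelial-like difference of Grem1 was -0.04 (95% interval -0.40 to 0.31, adjusted p = 0.970), with opposite signs in the 2 libraries. Subepithelial minus villus gave -0.20 (interval -0.55 to 0.16, adjusted p = 0.334), with 44.3% of the genes past the threshold, and it passed in 3 of 9 alternative analyses. Without cells carrying 2 or more markers of another cell type this difference turned sign, to 0.16, and did not pass. Within the subepithelial cells, Grem1 of the Wif1 and the Adamts18 cells differed by -0.03 (interval -0.38 to 0.31, adjusted p = 0.942), in a comparison where 29% of 1972 genes passed.

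**Figure D1:**
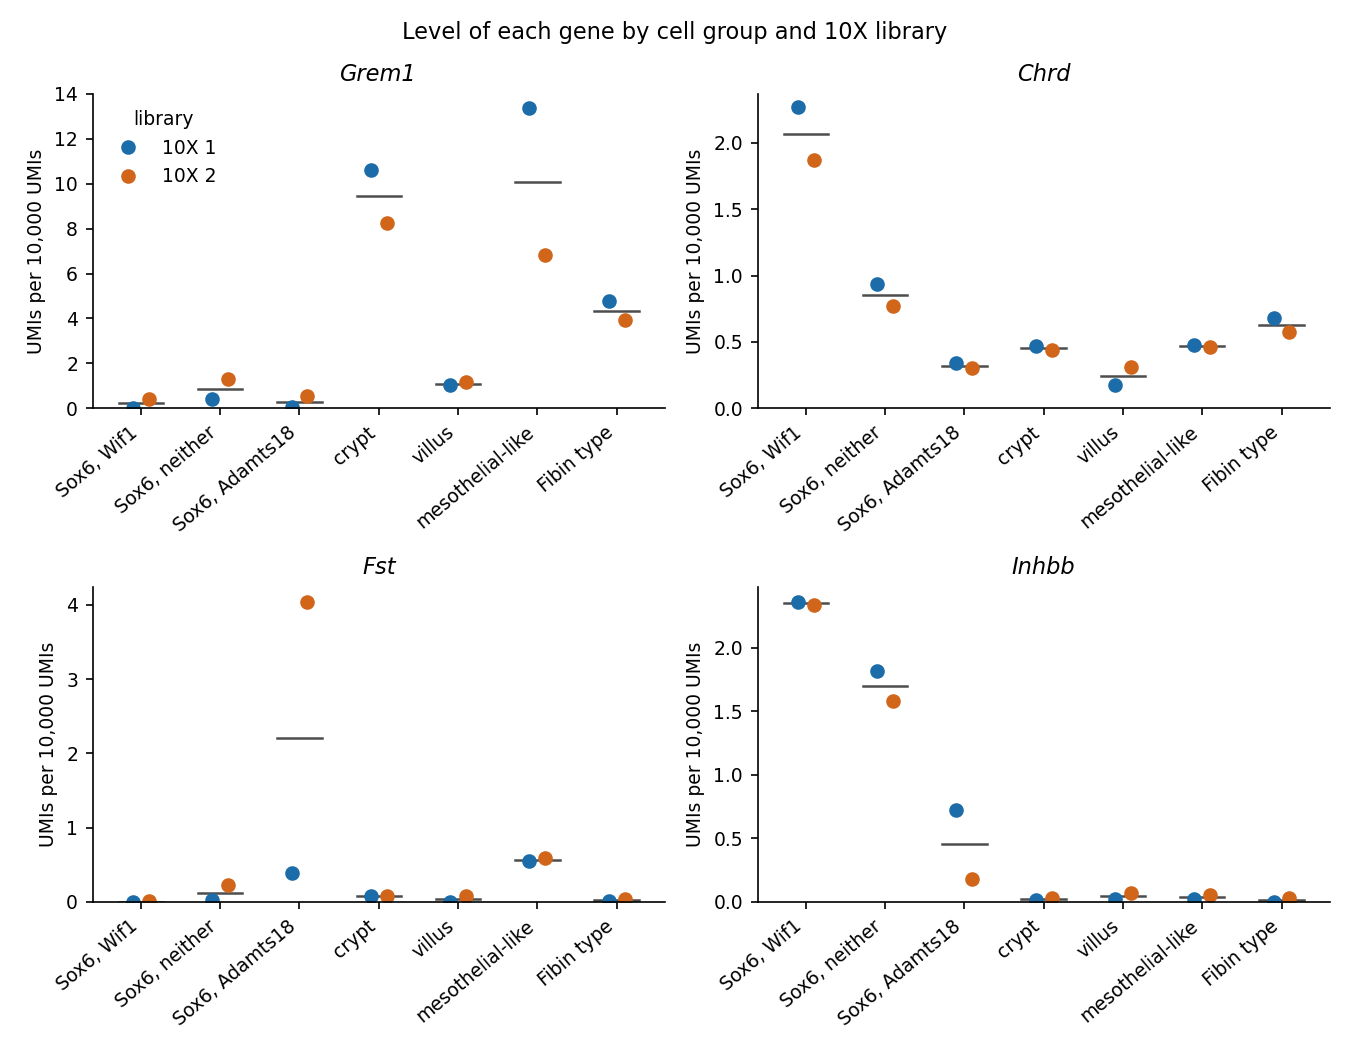
UMIs of each gene per 10,000 UMIs (vertical axis) in 7 groups of cells; each point is 1 10X library and each horizontal line the mean of both. Grem1 stood at 6.83 to 13.4 in the crypt and mesothelial-like groups, Chrd and Inhbb were highest in the Sox6 cells with Wif1, and Fst reached 4.04 in the Sox6 cells with Adamts18 of 10X 2 against 0.386 in 10X 1.

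A UMI of Grem1 was found in 69.9% and 66.7% of the crypt cells and in 72.5% and 60.8% of the mesothelial-like cells. After thinning these shares were 56.3% and 50.4%, and 64.5% and 43.5%. In villus cells 21.7% and 23.0% had a UMI (14.7% and 14% thinned). In 106 cells of 10X 2 that met no rule and carried at least 2 immune or 2 glial markers, a reference for free RNA picked after the group sizes were seen, the share was 2.83% (interval 0.588% to 8.05%, median 3786.5 UMIs), and 2.70% thinned. The intervals of the thinned villus shares (from 11.3% and from 12.7%) lay above that of this reference. The share in subepithelial cells was 4.91% in 10X 1, where the interval of 2.71% to 8.10% overlapped that of the reference, and 17.2% in 10X 2, where it did not. Thinned, these were 2.47% and 8.31%, and both intervals overlapped that of the thinned reference (0.329% to 9.42%, 74 cells). By level, Grem1 stood at 0.946 UMIs per 10,000 in the subepithelial cells of 10X 2 (2174 UMIs) and at 0.0944 in the reference (4 UMIs), and positive cells had a mean of 4.68 UMIs and up to 56, against 1.33 and up to 2.

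Where Grem1 was found in crypt cells there were many copies, with a mean of 13.4 and 9.08 UMIs per positive cell and a highest value of 153, while positive villus cells had a mean of 3.52 and 2.95.

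Within the crypt group the Grem1 level followed the number of crypt markers found. Cells with 2 of the 4 markers had 2.80 and 2.49 Grem1 UMIs per 10,000, cells with 3 had 5.85 and 6.73, and cells with all 4 had 17.5 and 14.8. The share with a UMI went from 45.2% and 42.7% through 65.9% and 69.1% to 89.1% and 92.3%. The median total per cell also differed, from 7888.5 to 9638 UMIs in 10X 1 and from 6281.5 to 8046 in 10X 2, and its part in the shares was not tested. Crypt cells without Lpl had 15.8 and 12.4 Grem1 UMIs per 10,000 at a lower median depth (7882 and 6242 UMIs) than those with Lpl (9331 and 7542.5 UMIs), which had 6.42 and 5.68. Chrd differed less along the same split, from 0.360 and 0.395 with 2 markers to 0.530 and 0.484 with 4, and Fst went from 0.0210 and 0.0296 to 0.120 and 0.116.

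**Figure D2:**
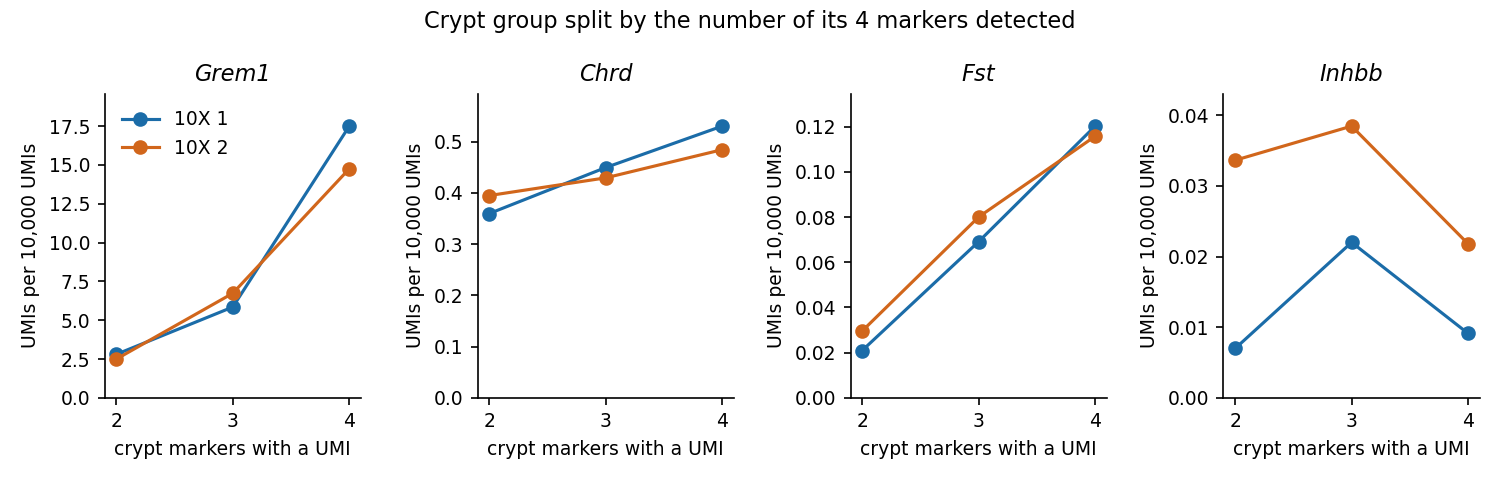
UMIs per 10,000 of each gene in crypt cells with 2, 3 or 4 of the crypt markers Prss23, Col8a1, Stc2 and Cilp (horizontal axis), 1 line per 10X library. Grem1 rises in both libraries, to 17.5 and 14.8, and Inhbb stays at 0.0385 or less.

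Chrd, the second BMP antagonist, had its highest level in the Wif1 cells. These held 2.27 and 1.87 Chrd UMIs per 10,000 in 10X 1 and 10X 2, the Sox6 cells with neither gene 0.938 and 0.773, and the Adamts18 cells 0.338 and 0.302. The Fibin type had 0.684 and 0.577, the mesothelial-like group 0.478 and 0.464, the crypt group 0.466 and 0.438 and the villus group 0.173 and 0.311. The Wif1 cells did not overlap with any of the other groups, and the Adamts18 cells lay below the crypt group in both libraries. Of all Chrd UMIs, 35.1% and 43.4% lay in the subepithelial group and 41.9% and 32.3% in the crypt group, which has more cells.

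The mean log value of Chrd was 0.77 ± 0.06 higher in the Wif1 than in the Adamts18 cells (adjusted p = 6.38e-07), and the fold by UMIs was 6.71 and 6.21. Without cells carrying 2 or more markers of another type this difference was 0.45, from 31 and 17 cells of 10X 2 alone. The Wif1 cells were also 0.54 ± 0.03 above the cells with neither gene (adjusted p = 6.73e-05), where 9.48% of the genes passed, and the Adamts18 cells 0.24 ± 0.03 below them (adjusted p = 0.00518), where 17.6% passed. For the whole subepithelial group, Chrd was 0.48 ± 0.16 above the villus group (adjusted p = 0.000109) and 0.35 ± 0.09 above the crypt group (adjusted p = 0.000368). The latter call ended without the cells that carry 2 or more markers of another type (0.05, adjusted p = 0.461), which leaves 21 of 285 and 303 of 2699 subepithelial cells, since 90.2% and 83.7% of them had 2 or more of the 5 pericyte markers. Against the villus group it was then 0.17 (adjusted p = 0.0233). With the Adamts18 cells on their own, Chrd did not pass against the crypt group (-0.06, interval -0.16 to 0.04, adjusted p = 0.281) or the villus group (0.07, interval -0.04 to 0.17, adjusted p = 0.265), with 59.8% and 46.3% of the genes past the threshold.

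Lower levels of Chrd were less far apart. Crypt minus villus gave 0.12 (interval 0.01 to 0.23, adjusted p = 0.0972), and crypt minus mesothelial-like -0.01 (interval -0.12 to 0.10, adjusted p = 0.972), where 14.1% of the genes passed. The Fibin type was 0.21 ± 0.07 above the villus group (adjusted p = 0.00627) and not told apart from the crypt group (-0.09 crypt minus Fibin type, adjusted p = 0.150). Villus minus mesothelial-like gave -0.14 (interval -0.25 to -0.03, adjusted p = 0.0474). Adamts18 minus Fibin type gave -0.15 (interval -0.25 to -0.05, adjusted p = 0.0207).

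A UMI of Chrd was found in 85.1% and 78.9% of the Wif1 cells, 51.6% and 38.3% of the cells with neither gene and 33.3% and 20.7% of the Adamts18 cells. At 2000 UMIs these were 38.6% and 27.8%, 17.2% and 13.6%, and 5.56% and 4.05%, in the same order, with the groups as formed at full depth. The Adamts18 share of 10X 1 is 1 of 18 cells, and its interval (0.141% to 27.3%) covers the 17.2% of the cells with neither gene. The villus group had 10.3% and 15.6%, and 3.29% and 6.95% thinned. The immune or glial cells had 4.72% (interval 1.55% to 10.7%), and 1.35% thinned. The villus interval of 10X 1 (7.56% to 13.7%) and both thinned villus intervals overlapped those of these cells, of which 74 were left thinned, while the villus interval of 10X 2 (14.3% to 17.0%) lay above. The villus level of Chrd in 10X 2 was 0.311 per 10,000 against 0.118 in these cells.

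Inhbb was close to a subepithelial gene in this gate. The subepithelial group held 94.2% and 91.9% of its UMIs, with 17.7% of all 10X cells. The Wif1 cells had 2.36 and 2.34 UMIs per 10,000, the cells with neither gene 1.82 and 1.58, and the Adamts18 cells 0.724 and 0.180. The crypt group had 0.0121 and 0.0307, the villus group 0.0200 and 0.0678, the mesothelial-like group 0.0242 and 0.0565 and the Fibin type 0 in 10X 1 and 0.0303 in 10X 2. All 3 subsets of Sox6 cells lay above all 4 other groups in each library. Inhbb passed the filter on low values (a value above 0 in 5% of the cells of a group) only through these subsets, so a difference from the other groups was a condition of its being tested there. For this and other genes carried past the filter by a group of the comparison, an adjusted p given below as with no filter comes from the same model over 3875 genes.

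Inhbb was 0.76 ± 0.11 above the villus group (adjusted p = 0.000336 with no filter, 22.3% of genes passed) and 0.77 ± 0.10 above the crypt group (adjusted p = 0.00025, 31.2% passed) in the subepithelial cells. By UMIs the subepithelial level was 98.9 and 25.7 times that of the villus group and 163 and 56.9 times that of the crypt group. Without cells carrying 2 or more markers of another type the log differences were 0.31 from each. The Adamts18 cells on their own were 0.20 ± 0.16 above the crypt group (0.31 in 10X 1 and 0.09 in 10X 2, adjusted p = 0.0418 with no filter, 30.3% of genes passed), and against the villus group the difference of 0.19 ± 0.17 did not pass (adjusted p = 0.0589 with no filter). Among the subepithelial cells, Inhbb was 0.82 ± 0.12 higher in the Wif1 than in the Adamts18 cells (adjusted p = 1.77e-06), 3.26-fold and 13-fold by UMIs, where 10X 1 rests on 15 Inhbb UMIs of 18 Adamts18 cells. The Wif1 cells were 0.33 ± 0.05 above the cells with neither gene (adjusted p = 0.00434) and the Adamts18 cells 0.49 ± 0.07 below them (adjusted p = 0.000231).

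Crypt, villus, mesothelial-like and Fibin type cells were not told apart by Inhbb. The differences between them were at most 0.011 in size, with adjusted p of 0.837 to 0.988, and the intervals lay within -0.10 to 0.10. A UMI was found in 0.920% and 1.85% of crypt cells, 0.739% and 2.61% of villus cells, 1.81% and 3.97% of mesothelial-like cells and 0 of 100 and 2.15% of Fibin type cells, where the interval of 0 of 100 reaches 3.62%. The immune or glial cells had 1.89% (interval 0.229% to 6.65%), and the intervals of all 4 groups overlapped theirs. By level, the villus cells of 10X 2 had 0.0678 Inhbb UMIs per 10,000 and up to 12 in a cell, against 0.0472 and 1 in the immune or glial cells, which held 2 Inhbb UMIs in all. In the Wif1 cells the share was 81.6% and 77.2% (44.7% and 35.8% thinned), in the cells with neither gene 63.4% and 47.8% (19.9% and 23.2%), and in the Adamts18 cells 27.8% and 11.5% (11.1% and 3.47%).

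**Figure D3:**
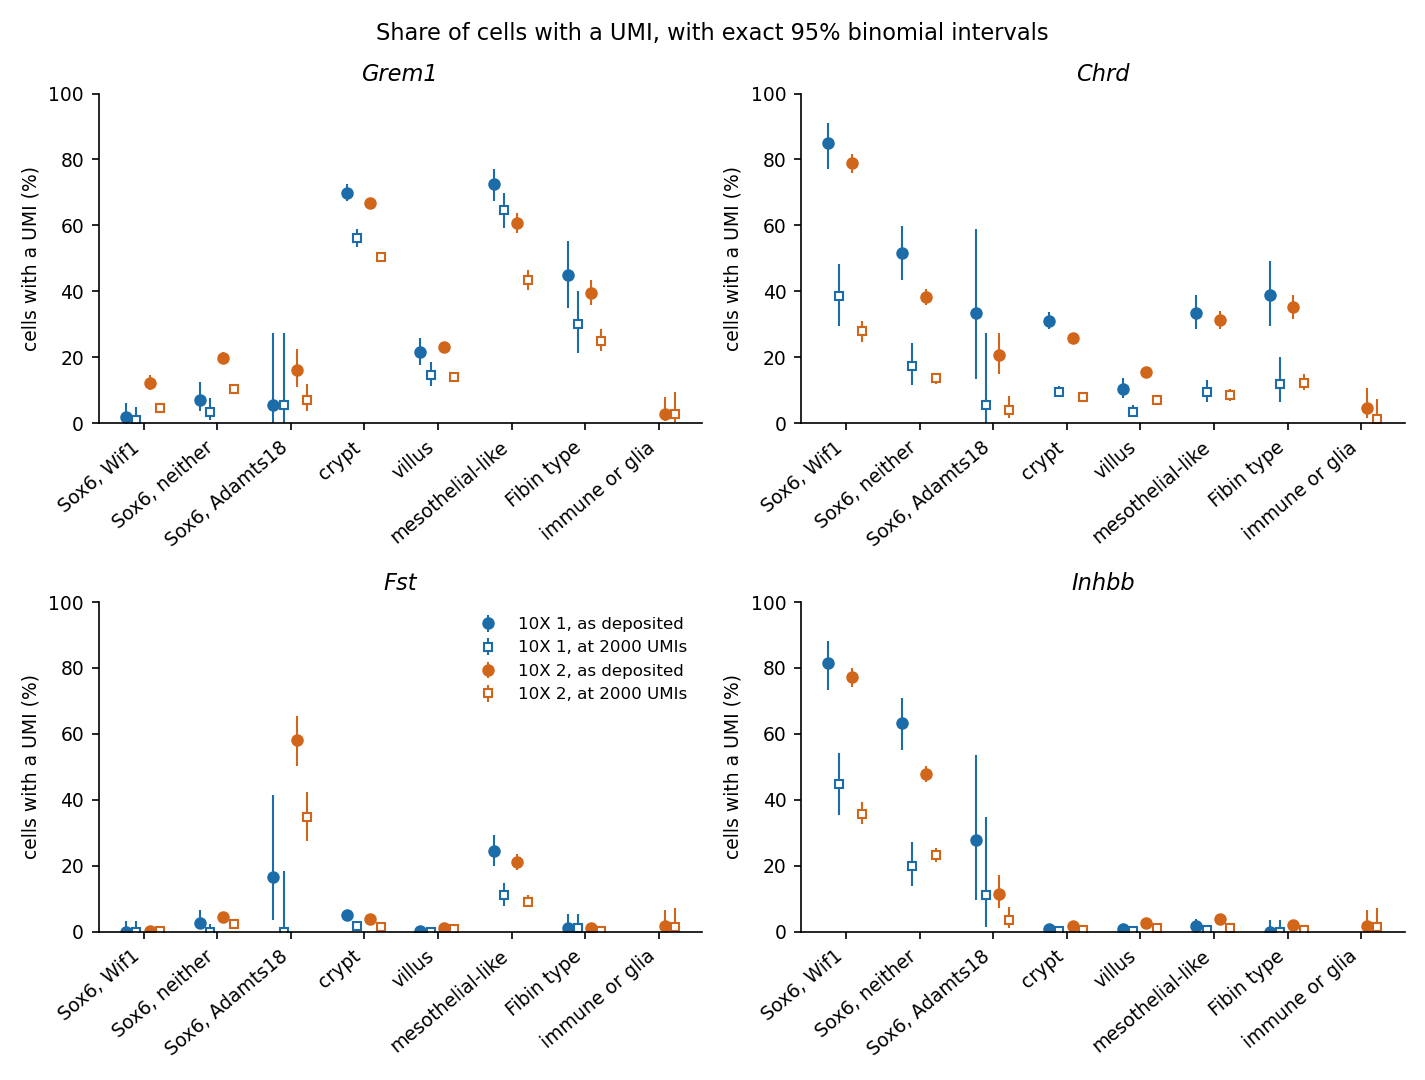
Share of cells with at least 1 UMI of each gene (vertical axis, percent) in 7 groups and in immune or glial cells that met no rule (10X 2 alone, since 10X 1 had 5 such cells); filled points are as deposited, open squares after thinning to 2000 UMIs per cell, and lines are exact 95% binomial intervals. The share of Inhbb is 77.2% or more in the Sox6 cells with Wif1 and 3.97% or less in the crypt, villus, mesothelial-like and Fibin type groups.

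Fst had another place. Its level was 0.386 and 4.04 UMIs per 10,000 in the Adamts18 cells and 0.547 and 0.589 in the mesothelial-like group, and it lay below 0.23 in all the others. The Wif1 cells had 0 in 114 cells of 10X 1 and 4 UMIs in 817 cells of 10X 2 (0.00508 per 10,000). The cells with neither gene had 0.0264 and 0.221, the crypt group 0.0815 and 0.0760, the villus group 0.00333 and 0.0743 and the Fibin type 0.0120 and 0.0341. The 2 libraries stood far apart in the Adamts18 cells and close together in the mesothelial-like group. In 10X 2 the Adamts18 cells, 1.21% of that library, held 31.8% of its Fst UMIs, and the mesothelial-like group 27.4%, while in 10X 1 they held 2.69% and 60.9%.

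A UMI of Fst was found in 3 of 18 Adamts18 cells of 10X 1 (16.7%, interval 3.58% to 41.4%) and in 101 of 174 of 10X 2 (58.0%, interval 50.3% to 65.5%). In mesothelial-like cells the share was 24.5% and 21.0%. Among positive cells of 10X 2, the Adamts18 cells had a mean of 6.23 UMIs and up to 46, and the mesothelial-like cells a mean of 2.33 and up to 11. The crypt share was 5.14% and 3.80%, the villus share 0.246% and 1.10% and the Fibin type share 1.00% and 1.15%, which lay within the interval of the immune or glial cells (1.89%, 0.229% to 6.65%). By level, the villus cells of 10X 2 had 0.0743 Fst UMIs per 10,000 (126 UMIs) and up to 23 in a cell. The immune or glial cells had 0.0472 (2 UMIs) and up to 1. At 2000 UMIs no Adamts18 cell of 10X 1 kept an Fst UMI, and 34.7% did in 10X 2.

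Fst was 0.61 ± 0.59 lower in the Wif1 than in the Adamts18 cells (adjusted p = 0.0217), -0.19 in 10X 1 and -1.03 in 10X 2. By UMIs, the Adamts18 level was at least 17.1-fold higher in 10X 1, with the Wif1 cells set at the floor of 3 counts, and 794-fold higher in 10X 2. The call was lost with no filter on low values (adjusted p = 0.105) and without the mean trend of limma (adjusted p = 0.0583), and the size rests on 10X 2. In this fit the Adamts18 and the mesothelial-like cells alone carried Fst past the filter. The Adamts18 minus neither difference was 0.57 ± 0.56, that from the crypt group 0.57 ± 0.60 and that from the villus group 0.60 ± 0.58, none of which passed with no filter (adjusted p = 0.157, 0.0723 and 0.0735), and 10X 2 was again the higher library in each. They did not pass against the mesothelial-like group (0.36, interval -0.02 to 0.74, adjusted p = 0.0908, 63.9% of genes passed), where 10X 1 gave -0.06 and 10X 2 gave 0.78. The 10X 1 value rests on 8 Fst UMIs in 18 cells.

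The mesothelial-like group gave a steadier difference. With no filter, its mean log value of Fst was 0.21 ± 0.001 above the crypt group (adjusted p = 0.0125, 4.62% of genes passed), 0.24 ± 0.01 above the villus group (adjusted p = 0.00204, 22.7%) and 0.25 ± 0.006 above the Fibin type (adjusted p = 0.00107, 33.1%). It was 0.19 ± 0.06 above the whole subepithelial group (adjusted p = 0.00252, 37.1%). The whole subepithelial group itself did not pass for Fst against the villus group (0.06, interval 0.01 to 0.11, adjusted p = 0.0675) or the crypt group (0.02, interval -0.03 to 0.07, adjusted p = 0.351), and crypt minus villus gave 0.03 (interval -0.02 to 0.08, adjusted p = 0.361). In this fit of 5 groups Fst passed the filter through the subepithelial and mesothelial-like groups.

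**Figure D4:**
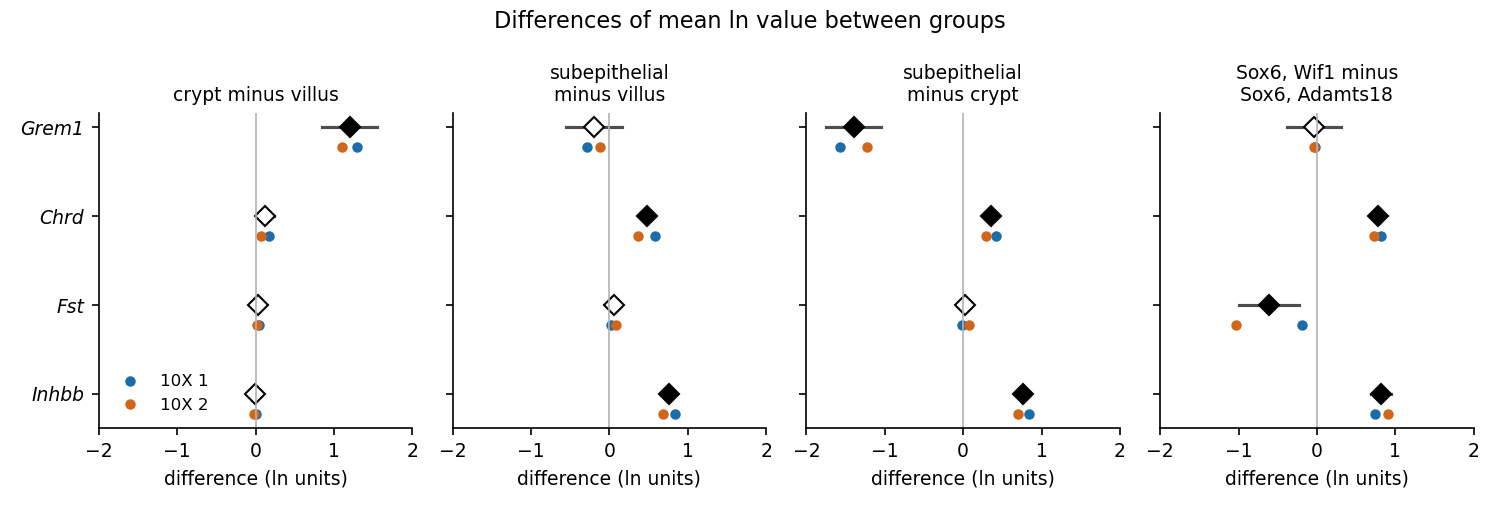
Difference of the mean natural log value between 2 groups (horizontal axis, ln units) for each gene in 4 comparisons; diamonds are limma estimates with 95% intervals, filled where the adjusted p was under 0.05, and small points are the difference within each 10X library. Chrd and Inhbb lie near 0.8 in the Wif1 minus Adamts18 comparison, while the 2 libraries stand at -0.19 and -1.03 for Fst, whose call there was lost with no filter.

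The antagonists and Inhbb were next set against each other within single cells. A UMI of both Chrd and Inhbb was found in 48.4% (interval 42.5% to 54.4%) and 34.8% (33.0% to 36.6%) of all subepithelial cells. The product of the 2 shares, which is what unrelated detection would give, was 43.7% and 26.9%. Of the subepithelial cells with Chrd, 75.8% and 70.4% had Inhbb, against 55.3% and 38.7% of those without. The pair thus met more often than the product in the whole group of 10X 2.

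Split by Wif1 and Adamts18, this differed by subset. In the Wif1 cells both were found in 68.4% and 61.4%, and the product was 69.4% and 61.0%. In the cells with neither gene the pair was found in 38.6% (interval 30.8% to 46.8%) and 25.3% (23.2% to 27.4%), against a product of 32.7% and 18.3%. Thinned, it was 3.97% and 4.76% there, against products of 3.42% and 3.16%. In the Adamts18 cells it was found in 1 of 18 and 5 of 174 cells (2.87%, interval 0.939% to 6.58%, product 2.38%). The median total of cells with both was 12321.5 and 9581 UMIs, above that of the whole subepithelial group (11064 and 8299), and the part of depth in the excess was not tested.

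Fst and Inhbb met less often than the product in the subepithelial cells of 10X 2. Both were found in 23 of 2699 cells (0.852%, interval 0.541% to 1.28%), against a product of 3.71%. Of 184 subepithelial cells with Fst, 12.5% had Inhbb, against 57.4% of those without Fst. Within the Adamts18 cells of 10X 2 both were found in 8 of 174 (4.60%, interval 2.01% to 8.86%), and the product of 6.67% lay inside the interval. Within the cells with neither gene the share was 0.587% (interval 0.282% to 1.08%), below the product of 2.16%. In 10X 1 there were 3 such cells in the whole subepithelial group (1.05%, interval 0.218% to 3.05%). The product of 1.68% lay inside the interval, which neither shows nor excludes a shortfall in that library.

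Grem1 and Inhbb were found together in 2.81% and 6.97% of the subepithelial cells (products 3.36% and 9.36%, and the interval of 10X 2 was 6.03% to 7.99%). In the Sox6 cells with neither gene of 10X 2, 32.9% of the cells with Grem1 had Inhbb, against 51.4% of the cells without. Grem1 and Chrd differed from their product by less in the crypt group, with 23.0% (interval 20.7% to 25.4%) against 21.8% in 10X 1 and 18.1% (17.2% to 19.1%) against 17.2% in 10X 2. Grem1 and Fst, both found in the mesothelial-like group, were together in 14.5% (interval 10.9% to 18.8%) and 10.2% (8.49% to 12.1%) of its cells, against products of 17.7% and 12.8%, so that in 10X 2 the product lay above the interval. Of the mesothelial-like cells with Grem1, 20% and 16.8% had Fst, against 36.3% and 27.7% of those without, in a group that the crypt rule splits by both genes as given above.

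**Figure D5:**
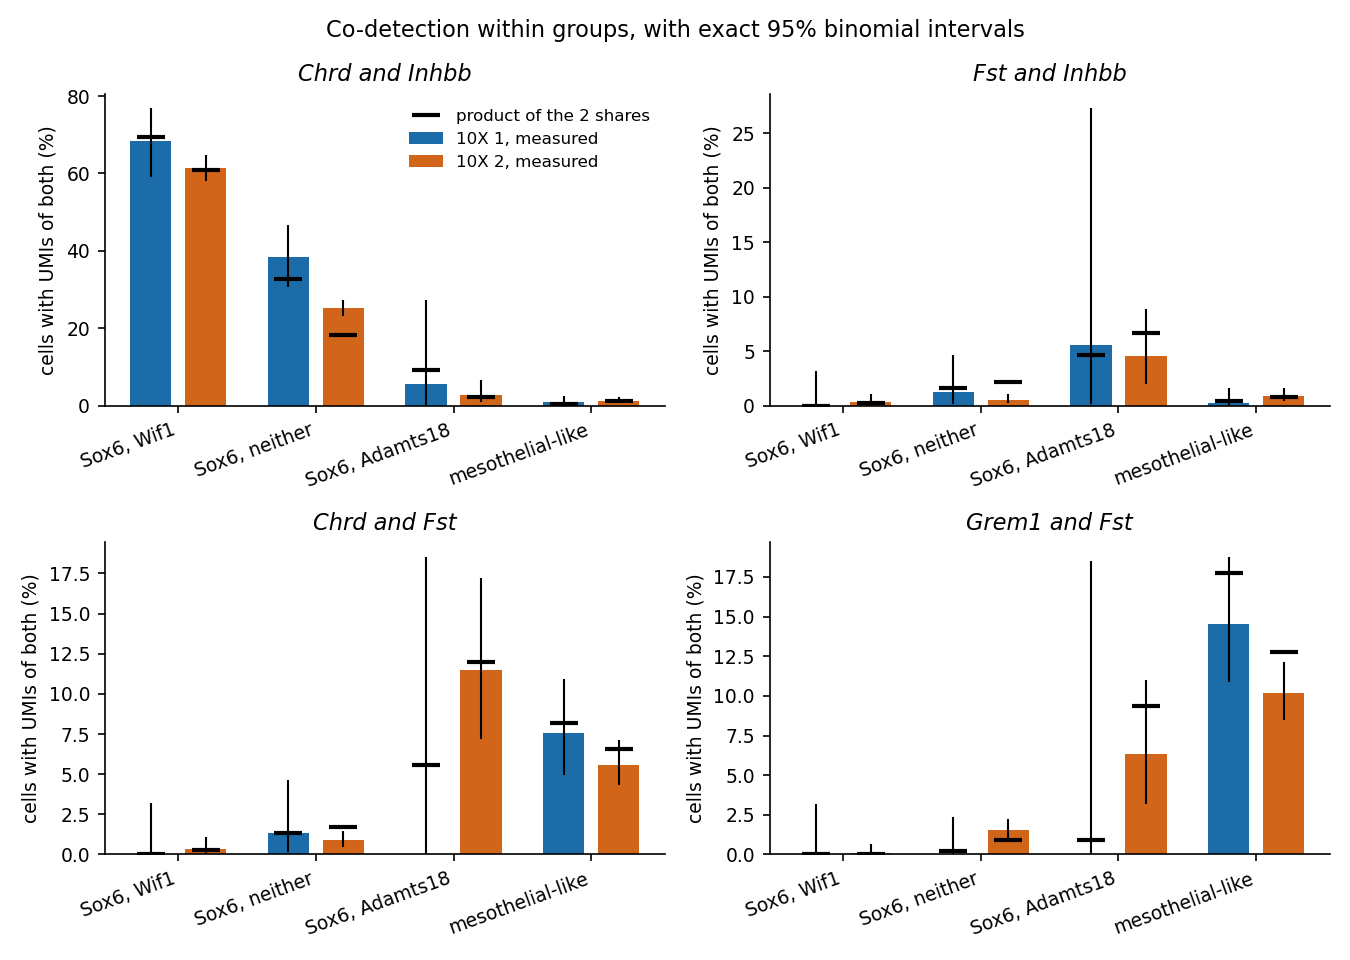
Share of cells with UMIs of both genes of a pair (bars, percent) in 4 groups of each 10X library, with exact 95% binomial intervals; black dashes mark the product of the 2 single shares. Chrd and Inhbb meet at the product in the Sox6 cells with Wif1 (68.4% and 61.4%), and the pairs with Fst stay at 14.5% or less.

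Counting all 4 genes, 48.4% and 37.9% of the subepithelial cells had UMIs of exactly 2, and of the Wif1 cells 66.7% and 59.0% did. Most crypt cells had 1 (52.2% and 53.8%), and most villus cells had 0 (69.5% and 63.5%).

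The order of the groups over 14 points (7 groups in each of 2 libraries) was compared by Pearson's r, as a description, since the points of a library share its depth. Chrd and Inhbb had an r of 0.88, Grem1 and Inhbb -0.62, Grem1 and Chrd -0.36, and Fst had -0.06 with Grem1, -0.30 with Chrd and -0.22 with Inhbb. The genes most like Grem1 were Nkain4 (0.99), Serpini1 (0.97) and Gsta3 (0.97), those most like Chrd were Dio2 (0.97), Trp53i11 (0.97) and Foxs1 (0.96), those most like Inhbb were Synpo (0.98), Amotl2 (0.98) and Kcnab1 (0.98), and those most like Fst were Npnt (0.94), Npr3 (0.93) and Il1rl1 (0.92). Dio2, a deiodinase that activates thyroid hormone, had 0.66 and 0.45 UMIs per 10,000 in the Wif1 cells and at most 0.09 in any other group. Npnt, which encodes the matrix protein nephronectin, had 0.48 and 2.83 in the Adamts18 cells and at most 0.19 elsewhere, and it was higher in 10X 2 than in 10X 1, as was Fst. In the mesothelial-like group, which also held Fst, Npnt had 0.02 and 0.03 and Il1rl1 0 and 0.004. The mean log value of Fst was 1.03 in the Adamts18 cells of 10X 2 and at most 0.26 at the other points. Its r values were not computed without that point. Gsta3, a glutathione transferase, had 2.56 and 2.62 in the crypt and 2.87 and 2.33 in the mesothelial-like group.

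Of all genes tested, 36.9% were higher and 24.7% lower in the subepithelial than in the crypt group, 31.5% and 12.8% in the subepithelial than in the villus group, 16.5% and 9.68% in the crypt than in the villus group and 15.3% and 13.7% in the Wif1 than in the Adamts18 cells. The counts of the pathway lists below, which leave out the 4 genes, are to be read against these shares.

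Bmp2, Bmp5 and Bmp7, which encode BMP ligands, were higher in the subepithelial than in both the crypt and the villus group. Of 19 BMP and GDF ligands listed, 7 were in the table and tested. Bmp3 and, among the modulators, Smoc1 passed the filter on low values only through the Sox6 cells, as Inhbb did, and are left out of the counts for the subepithelial against the crypt and villus groups. Of the other 6 ligands, 3 were higher in the subepithelial than in the crypt group, 1 was lower and 2 did not pass (median difference 0.13, against 0.02 over all genes tested), and against the villus group 3 were higher and 3 did not pass. Bmp5 was 1.83 ± 0.01 (adjusted p = 1.23e-07), Bmp7 1.27 ± 0.19 (0.000287 with no filter) and Bmp2 0.28 ± 0.03 (0.00264) above the crypt group. Gdf6 was 0.16 ± 0.002 below it (0.00245). Bmp3 was 0.70 ± 0.17 above it (adjusted p = 0.0011 with no filter). In the crypt against the villus group Gdf6 was higher (0.19 ± 0.01, adjusted p = 0.0311 with no filter), Bmp5 lower (-0.34 ± 0.02, adjusted p = 0.00125), and the other 5 did not pass. The Wif1 and Adamts18 cells differed in 1 of the 7, Bmp3 (0.49 ± 0.15 higher with Wif1, adjusted p = 0.000719).

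Of the activin and inhibin subunits other than Inhbb, Inhba alone was tested, of 4 listed and 2 in the table. It encodes the subunit of activin A. It was 0.50 ± 0.16 above the crypt group (adjusted p = 0.00397 with no filter) and 0.48 ± 0.18 above the villus group (adjusted p = 0.000291) in the subepithelial cells. It was 0.22 ± 0.18 higher in the Wif1 than in the Adamts18 cells (adjusted p = 0.0355, and 0.123 with no filter), and crypt and villus cells were not told apart (-0.02, adjusted p = 0.924).

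Of 16 other secreted antagonists and modulators listed, 7 were in the table and 6 were tested, and they fell on both sides. Without Smoc1, 2 of 5 were higher in the subepithelial than in the crypt group: Nbl1, a DAN family BMP antagonist (1.49 ± 0.17, adjusted p = 0.000123), and the matrix protein Smoc2 (0.73 ± 0.29, 0.000459). Chrdl1, a relative of Chrd that passed the filter through the crypt and mesothelial-like groups, was lower (-0.09 ± 0.01, adjusted p = 0.000956 with no filter), and 2 did not pass (median of the 5 genes -0.002, against 0.02 over all genes tested). The matrix protein Smoc1 was 0.18 ± 0.04 above the crypt group (adjusted p = 0.00128 with no filter). Chrdl1 was also higher in the crypt than in the villus group, by 0.10 ± 0.004 (adjusted p = 0.00837 with no filter, 9.32% of genes passed), while 5 of the list did not pass. In the subepithelial against the villus group Nbl1 and Smoc2 were higher again and Bmper was lower (-0.05 ± 0.02, adjusted p = 0.0489 with no filter). The Wif1 and Adamts18 cells parted by the Smoc genes: Smoc2 was 1.61 ± 0.28 higher with Wif1 (adjusted p = 1.21e-06) and Smoc1 0.53 ± 0.01 lower (adjusted p = 5.15e-07), and the other 4 did not pass.

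Among 17 receptors and co-receptors, 4 were tested. Eng, a co-receptor, was 0.42 ± 0.07 above the crypt group in the subepithelial cells (adjusted p = 0.000246) and 0.44 ± 0.13 higher in the Wif1 than in the Adamts18 cells (adjusted p = 0.000253), and Bambi, a decoy receptor, was 0.15 ± 0.0002 below the crypt group (adjusted p = 0.000865).

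Of 18 intracellular and target genes, 6 were tested, and 4 were higher in the subepithelial than in the crypt group (median of the list 0.34). They were Id1 (0.58 ± 0.05, adjusted p = 2.66e-06), Id2 (0.37 ± 0.04, 3.21e-05) and Id3 (0.38 ± 0.06, 0.00938), known targets of BMP signalling, and Runx1 (0.31 ± 0.03, 6.44e-05). The same 4 were higher than in the villus group, and none of the 6 passed between crypt and villus at an adjusted p of 0.05. Id1 and Id2 were lower in the Wif1 than in the Adamts18 cells, with differences of -0.31 ± 0.15 (adjusted p = 0.00121) and -0.18 ± 0.01 (0.0097), whereas Runx1 was higher (0.20 ± 0.23, adjusted p = 0.0381, and 0.122 with no filter).

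Markers of other cell types moved with the groups. Of 5 smooth muscle markers, the summed level was 6.29 and 4.83 UMIs per 10,000 in the subepithelial group and 0.80 and 1.08 in the crypt group, and the list of interstitial cells of Cajal stood at 3.45 and 2.84 against 0.34 and 0.49. At least 2 of the 4 Cajal cell markers were found in 22.2% and 23.0% of the Adamts18 cells, against 2.63% and 2.08% of the Wif1 cells. In the Adamts18 cells these were Ano1 and Etv1, as Kit and Thbs4 had no UMI in either library, and the sum of the list was lower there (2.22 and 2.54) than in the Wif1 cells (4.38 and 3.65). The 5 pericyte markers summed to 10.3 and 11.6 in the subepithelial and to 16.6 and 19.1 in the crypt group, while 2 or more of them were found in 90.2% and 83.7% of the subepithelial and 23.1% and 24.8% of the crypt cells. Of 6 immune markers the sum was 0.11 to 0.40 per 10,000 in the subepithelial, crypt, villus and mesothelial-like cells, with Ptprc in at most 0.378% of them in 10X 2. Glial markers summed to 0.83 in the subepithelial group of 10X 2 and 0.12 in 10X 1. They stood mainly in the Sox6 cells with neither gene, with 0.18 and 1.33 per 10,000 and 2 or more markers in 0.654% and 3.70% of these cells, against 0.07 and 0.12 in the Wif1 and 0 and 0.07 in the Adamts18 cells. Their part in the differences above was not tested, other than by leaving such cells out.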

How the data were processed

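Cells of 4 libraries were profiled by single-cell RNA sequencing. Per the labels and the methods, the authors mapped the 10X libraries with Cell Ranger 3.1.0 (mm10-GRCm38) and the Smartseq2 libraries with TopHat2 2.1.1, then filtered, normalised and integrated the cells in Seurat. The deposited values are on the natural log scale. In 10X cells they were ln(1 + 10000 × UMIs of the gene / total UMIs), and 100% of them gave whole UMIs (tolerance 0.01). The Smartseq2 values (25.1% and 26.1% below 0) are corrected by integration and were not used for groups or levels. 1 row that ended early was left out.

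Groups were formed from the 10X cells (totals of 559 to 26890 and 465 to 22450 UMIs). The 4 genes, the groups and the pathway lists were chosen with earlier results of these data known. 1 gene of the antagonist list is not reported here and was left out of its counts. Named genes are the 4 genes, listed pathway genes past the threshold and the 3 genes most like each member. Mean natural log values per library and group were compared with limma 3.58.1 (R 4.3.3, mean trend, library as block, Benjamini-Hochberg adjustment at 0.05) in 1 fit of 5 and 1 of 7 groups, on genes detected in 5% or more of the cells of any group, without the 16 genes of the rule. Where 1 of 2 compared groups carried a gene past this filter and the other did not, called differences are also or only given from the fit with no filter, a choice made after the values were seen. On simulated data with 200 changed genes, 94% of changes of 0.25 were recovered in the subepithelial against crypt comparison of 1890 genes. There 3.09% of the calls were false. In the Wif1 against Adamts18 comparison 91% were recovered, and 4.71% of the calls were false. The simulated spread was smoothed over genes by their mean level. These shares therefore do not hold for genes of larger spread, such as Grem1, whose standard error in the first comparison was 0.15. Shares of cells carry exact 95% binomial intervals, which cover counting error only, and the floor of a count of 0 was 3 counts. UMIs were thinned with Python 3.11.15 and numpy 2.4.6. Scrublet (scanpy 1.11.5) marked 3 and 0 cells at its own threshold and had not worked, so doublets were kept, and an alternative left out the 52 and 1646 cells of highest score. Other alternatives changed the filter, block, trend, summing, thinning and the cells kept.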

Additional observations from a re-analysis of the deposited data

Results flagged for a closer look

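Signals outside the groups compared were seen in 10X 2. Among its 994 cells that met no rule, a UMI of Grem1 was found in 20.9% and of Chrd in 15.2%, above the upper limits of the immune or glial cells (8.05% and 10.7%). Among its 4 Sox6 cells with both Wif1 and Adamts18, Fst was found in 75.0% (3 cells, interval 19.4% to 99.4%) and Inhbb in 50.0% (2 cells, interval 6.76% to 93.2%). The upper limits of the immune or glial cells were 6.65% for each. Fst was found in 58.0% of the Adamts18 cells and Inhbb in 54.4% of all subepithelial cells of this library, both inside these intervals. The cause was not tested.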

How the results depend on the processing

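Of 144 tests of the 4 genes under 9 alternatives, 134 kept direction and side of the threshold, 3 lost and 4 gained the call, and 3 turned sign with no call in either analysis. The last were Grem1 in subepithelial against villus (0.162) and Inhbb in crypt against villus (0.00038) without cells carrying markers of another type, and Fst in subepithelial against crypt (-0.0145) with groups from thinned UMIs. Without cells carrying 2 or more markers of another type, 324 genes passed in crypt against villus (495 in the report), 258 in subepithelial against villus (837) and 550 in subepithelial against crypt (1164), and Chrd was 0.0454 in the last, without a call. There Inhbb was 0.311 above villus and 0.31 above crypt cells, and Chrd 0.171 above villus cells, with a call. The Wif1 against Adamts18 comparison (Chrd 0.452) then held 3 and 1 cells of 10X 1 and so rests on 31 and 17 cells of 10X 2 alone. Fst in Wif1 against Adamts18 ranged from -1.78 to -0.611 over the alternatives. Grem1 in subepithelial against villus passed at -0.338 with groups from thinned UMIs, at -0.271 without cells that meet more than 1 rule and at -0.293 when the Lpl rule was ignored there (chosen after seeing the data). Fst passed in that comparison at 0.0651 without cells of more than 1 rule. Fst in Wif1 against Adamts18 stayed at -0.611 but lost the call with no filter or no mean trend. Leaving out a library gave -1.03 to -0.192 for it, -0.0206 to 0.0699 for Fst in subepithelial against crypt, and -0.0146 to 0.000454 for Inhbb in crypt against villus. Without the replicate block (the cell groups of a library are paired, since they share that library), 402, 746, 1090 and 494 genes passed in the 4 comparisons, and no call of the 4 genes changed.

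Shares of cells, in 10X 1 and 10X 2, moved with depth and with the cells kept. Thinned, Grem1 was found in 56.3% and 50.4% of crypt and 64.5% and 43.5% of mesothelial-like cells, Chrd in 38.6% and 27.8% and Inhbb in 44.7% and 35.8% of Wif1 cells, and Fst in 0.0% and 34.7% of Adamts18 and 11% and 9.17% of mesothelial-like cells. Both Chrd and Inhbb were found in 17.5% and 11% of Wif1 cells and both Fst and Inhbb in 0.0% and 0.578% of Adamts18 cells. Without cells of more than 1 rule, Grem1 was at 83.8% and 79.1% in crypt and 22.2% and 40% in mesothelial-like cells (9 and 25 cells), Chrd at 93.3% and 74.8% in Wif1 cells, Inhbb at 68.7% in Wif1 cells of 10X 2, Fst at 71.4% in Adamts18 cells of 10X 2 and 33.3% and 16.0% in mesothelial-like cells, Chrd with Inhbb at 57.4% in Wif1 cells of 10X 2 and Fst with Inhbb at 0.0% in Adamts18 cells. Without cells of highest doublet score Grem1 was at 65.3% in crypt cells of 10X 2. Arms left with under 10 cells in 10X 1 rest on 10X 2, which is assumed to vary like the other groups.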
